A study of Mus musculus with 48 samples.

Results

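The comparison described here set all 16 Glatopa samples (4 lots, 4 samples each) against all 17 Copaxone samples (9 lots, 2 samples each except lot 8, which had 1), that is 33 of the 48 samples measured. Members were taken by the product named in the sample titles, and every probe of the array was used. Glatopa and Copaxone are both preparations of glatiramer acetate, a mixture of synthetic polypeptides given for relapsing multiple sclerosis. The other 15 samples were 8 wells that received ACN, a glatiramoid that is related to Copaxone and differs from it chemically (1 lot), and 7 media-only wells. They served as a scale of size and enter no Glatopa minus Copaxone value.

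All wells held the same cells. The responder was Th2-455, a nonclonal T cell line started from lymph node CD4+ T cells of female Balb/c mice aged 8 to 12 weeks that had been immunized with 250 µg of Copaxone, then restimulated with Copaxone over 13 rounds. Each well also received naive Balb/c splenocytes as antigen-presenting cells (APCs), 5 for every T cell; whether these splenocytes had been depleted of T cells is not given in the sources used here. Glatopa, Copaxone or ACN was added at 20 µg/mL for 24 h, and all cells of a well were lysed together. The line had therefore been raised on Copaxone only, and each value is a sum over T cells and splenocytes. Wells came from a single cell bank on the same day, so the tests below measure the spread between wells and lots, not between mice.

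Glatiramer acetate is taken up by APCs, and its peptides are shown on MHC class II molecules to T cells whose receptors recognize them. Th2 cells that recognize it release type 2 cytokines such as interleukin (IL)-4 and IL-13, which act on B cells, macrophages and eosinophils. In such a co-culture T cells and splenocytes can both contribute to a class of transcripts, and values of whole wells assign no transcript to either.

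Values are log2 fluorescence intensities, background-corrected and quantile-normalized by the authors, so that a difference of 1 is a 2-fold difference in signal. Replicate spots among the 43020 were averaged, and 29436 of the resulting probes carry 1 of 22485 gene symbols. Every array had a median between 4.95 and 5.02, and probes near 5 carry little signal above that median. The marker genes of the cells were checked in both products. Cd3d had a mean of 9 in Copaxone and 8.95 in Glatopa samples, Thy1 10.12 and 10.18, and the Th2 master regulator Gata3 7.67 and 7.67. The probe for Cd4, which defines the line, read only 5.12 and 5.13, close to the array median. B cell genes of the splenocytes were read as well, with Ms4a1 (CD20) at 11.41 and 11.4. Not every B cell marker was bright: the probe for Ighm read 4.9 and 4.82, close to the array median.

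Some arrays stood apart from the rest. On the first component of the deviations from the group means, which held 12% of that variance, Copaxone lot 3 replicate 1, lot 7 replicate 1 and lot 9 replicate 1 scored above 0.3, as did 1 ACN array. Copaxone arrays ranged from -0.24 to 0.58 and Glatopa arrays from -0.09 to 0.10. Values without these 3 Copaxone arrays are given beside several of the results.

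No probe was called between the products. At an adjusted p under 0.05 (limma with Benjamini-Hochberg adjustment over all 39430 probes) 0 probes passed, which is 0% of those tested, and the smallest adjusted p was 0.368. At an unadjusted p under 0.05, 703 probes (1.78%) were higher with Glatopa and 925 (2.35%) were lower. The methods' t-test gave 0 calls after the same adjustment and 1624 probes at an unadjusted p under 0.05. With 1 mean per lot (4 against 9) limma called 0 probes, with 789 at an unadjusted p under 0.05.

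A missing call does not measure how close the products were, so the 90% interval of each difference was used. Its end farther from 0, written as a fold, is called the limit of a probe here: the largest difference in either direction that the interval still holds. Limits of 37573 probes, 95.3%, lay under 1.3-fold, and 90.1% lay under 1.2-fold, 97.9% under 1.5-fold and 99.3% under 2-fold. These shares lean on dim probes. In the dimmest 25% of probes, with mean levels up to 4.82, 99.9% of limits were under 1.3-fold, whereas in the brightest 25%, from 5.88 upward, 85.9% were, and 70.2% were under 1.2-fold. Background correction with an offset compresses differences near the floor, so the shares are also given for the 19715 probes with a mean level above 4.93, the median, called the brighter probes here. Among them 91.1% of limits lay under 1.3-fold and 96.1% under 1.5-fold. For ACN minus Copaxone, with 8 ACN wells, the same shares were 81.4% and 93.1%. Most brighter probes thus lay inside these margins for the distinct glatiramoid too, and fewer wells widen its intervals.

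Lots rather than samples can be taken as the unit of replication. With lot means as single values, 88.8% of the brighter probes had limits under 1.3-fold and 95.2% under 1.5-fold (limma, 4 Glatopa lots and 9 Copaxone lots). The shares were lower among the brightest 9858 probes, with mean levels from 5.88 upward. There, with lot means, 81.9% of limits were under 1.3-fold and 63.5% under 1.2-fold, in place of 85.9% and 70.2% with samples. The median SD of a brighter probe was 0.175 over the 16 Glatopa samples and 0.209 over the 17 Copaxone samples, and the median absolute difference between the products was 0.0467. The median SD within lots was 0.176 and 0.214, close to the SDs over all samples of a product. For 97.6% of all probes the mean of the 4 Glatopa lots fell within the span of the 9 Copaxone lot means. Each Copaxone lot mean rests on 1 or 2 samples and the Glatopa mean on 16, so a high share follows largely from the design. The median SD of lot means over all probes was 0.113 for Copaxone and 0.0664 for Glatopa. The share to be found with no difference was not computed.

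**Figure D1:**
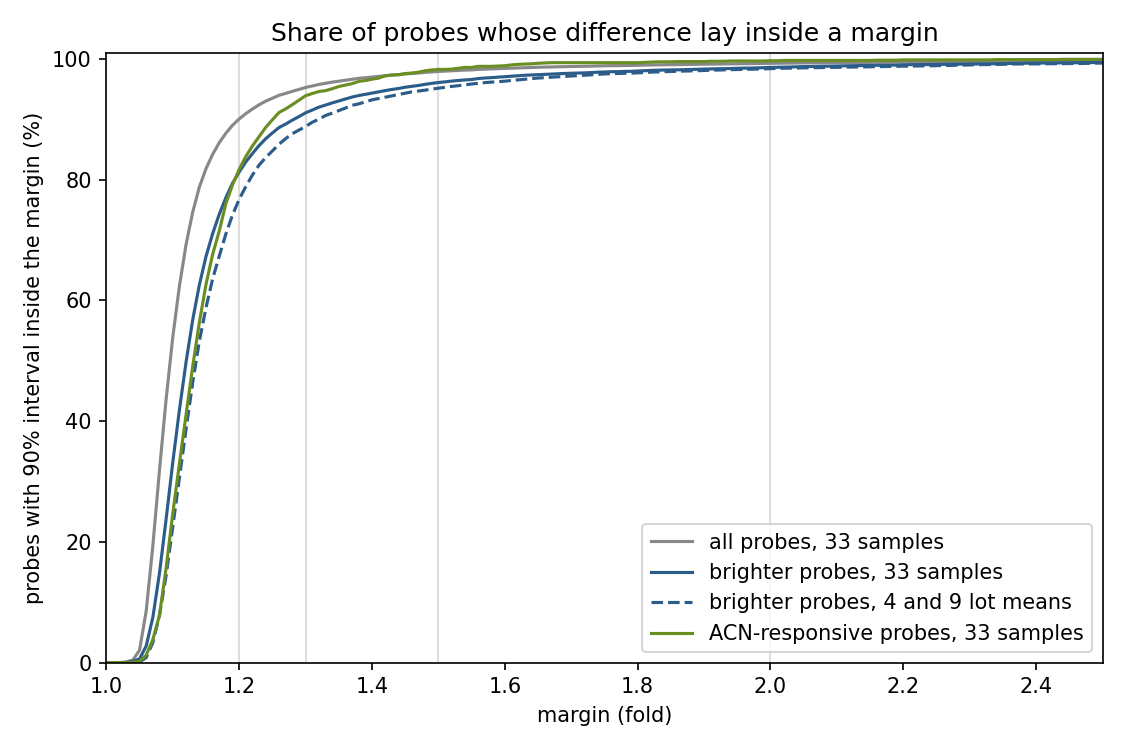
Share of probes (vertical axis, percent) whose 90% interval of the Glatopa minus Copaxone difference lay inside a margin (horizontal axis, fold). The brighter probes reached 91.1% at 1.3-fold with 33 samples and 88.8% with lot means, below the 95.3% of all probes.

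Genes that responded to a glatiramoid were compared next. Responsive probes were chosen from ACN and media-only samples alone (limma adjusted p under 0.05 and at least 1.3-fold), so that neither product took part in the choice. There were 2155, or 5.47% of the probes, 1108 raised and 1047 lowered. Signed by the direction of the ACN response, their median change from media was 0.663 with Copaxone and 0.657 with Glatopa, and the median of the probe-wise Glatopa minus Copaxone difference was -0.0005. Glatopa moved further along the response than Copaxone for 1072 of the 2155, or 49.7%. Limits were under 1.3-fold for 93.9% of them and under 1.5-fold for 98.3%. Among the 179 that responded at least 2-fold, 86% were under 1.3-fold, and the limit was less than 25% of the size of the ACN response for 143.

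The mean of these 2155 signed values gives each sample a score, set to 0 at the Copaxone mean. Copaxone scores ran from -0.067 through a median of 0.012 to 0.075. Glatopa scores ran from -0.064 through -0.002 to 0.052. The 2 ranges overlapped almost fully, and the widest span within a single lot was that of Copaxone lot 9, which held both the lowest and the highest Copaxone score. Replicate 1 scored above replicate 2 in 8 of the 8 Copaxone lots with both and in 2 of 4 Glatopa lots, and the 3 Copaxone arrays that stood apart are all numbered 1. In every Glatopa lot replicate 1 scored above replicate 4. The scores were 0.031 and -0.031 in lot 1 and 0.004 and -0.001 in lot 2. They were 0.039 and -0.053 in lot 3 and 0.023 and -0.021 in lot 4. Copaxone has no replicates 3 and 4, so differences between the products along the response compare unlike replicate numbers. No test was made on this score.

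**Figure D2:**
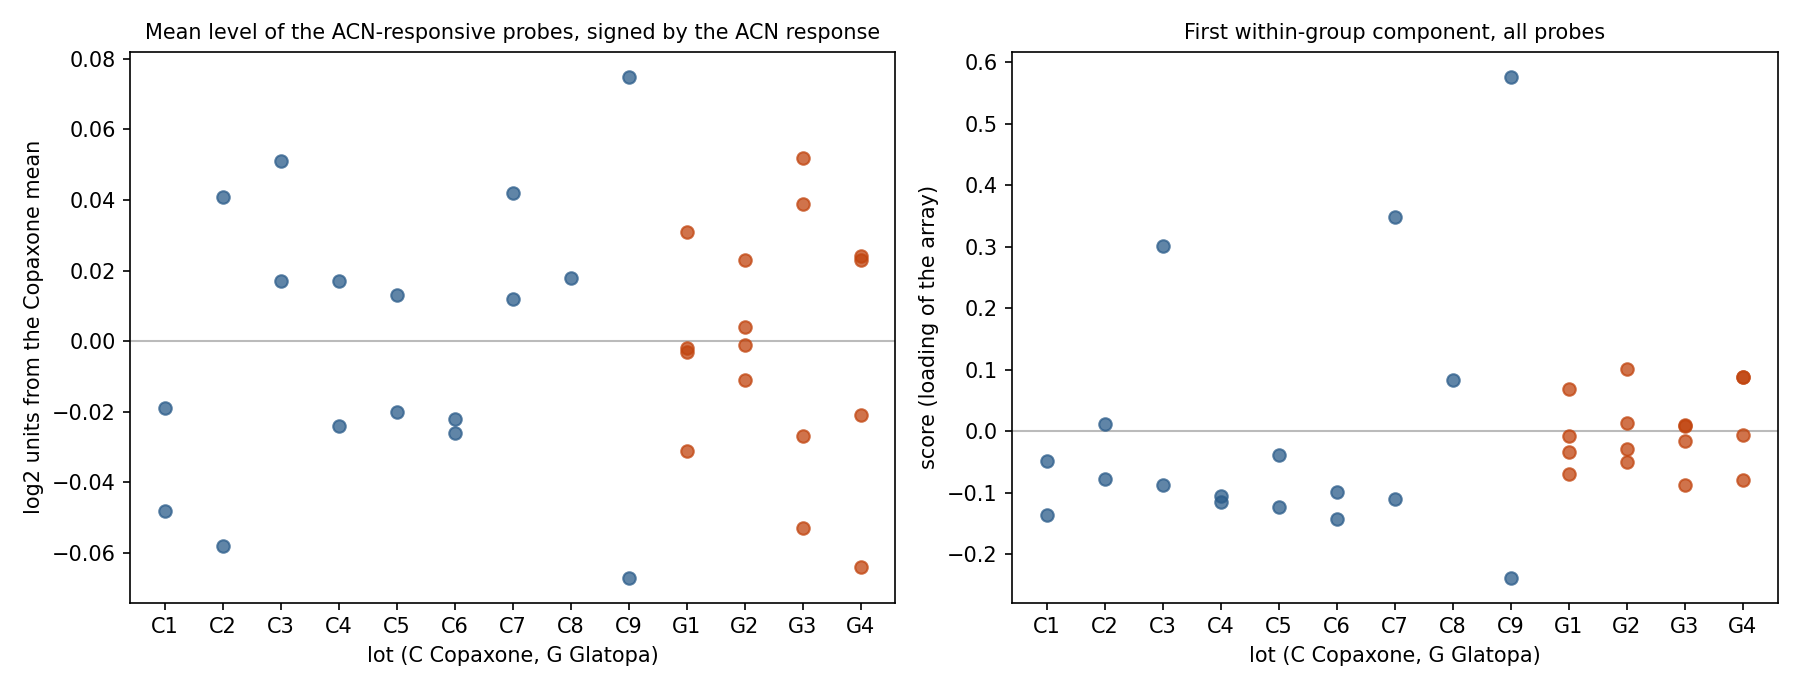
Left, mean log2 level of the 2155 ACN-responsive probes, signed by the ACN response and centred on the Copaxone mean, for each sample by lot; right, score of each array on the first component of deviations from the group means. Scores of the products overlap on the left (-0.067 to 0.075 and -0.064 to 0.052), and 3 Copaxone arrays and no Glatopa array lie above 0.3 on the right.

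The 10 genes with the largest rise from media to ACN included the cytokines Il3, Il5 and Il13. Gzma, which encodes the serine protease granzyme A, also among them, stood at 5.93 in media-only wells. It ranged from 10.14 through a median of 11.08 to 11.85 with Copaxone and from 10.39 through 11.16 to 11.6 with Glatopa. The difference was 0.15 ± 0.12 (SE) on the log2 scale, with a limit of 1.28-fold, beside a Copaxone minus media difference of 5.07. Without the 3 Copaxone arrays that stood apart it was 0.26, with a limit of 1.37-fold. Ccl1, a chemokine secreted by activated T cells, was above media by 4.87 with Copaxone and 4.97 with Glatopa, with a limit of 1.2-fold. Penk, the enkephalin precursor, was above media by 3.06 and 3.11 (limit 1.12-fold), and Cish, an inhibitor of cytokine signaling induced through STAT5, by 2.32 and 2.24 (limit 1.17-fold). Limits of 7 of these 10 genes were under 1.3-fold, and the widest was 1.38-fold, for Il13.

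The 10 genes with the largest fall from media to ACN included genes of macrophages and B cells. Apoe, the lipid carrier made by macrophages, stood at 10.65 in media-only wells. It ranged from 7.74 through 7.99 to 8.6 with Copaxone and from 7.59 through 7.95 to 8.22 with Glatopa, a difference of -0.08 with a limit of 1.14-fold. Icosl, the ligand of the T cell costimulatory receptor ICOS, had differences from media of -1.92 with Copaxone and -1.89 with Glatopa (limit 1.1-fold). Ccl5, Cd93, Fcrla, Hal and Smpdl3a had limits from 1.06-fold to 1.13-fold. The exceptions in the 10 were Ramp3 and Adgre5, with limits of 1.36-fold and 2.28-fold. For Ramp3, 1 Copaxone array read 4.76 and the next lowest 6.26, against a median of 7.27. For Adgre5, 4 Copaxone arrays read 4.9, 5.25, 5.87 and 6.6, against a median of 8.86, and the lowest 3 of them are the arrays that stood apart. Without those 3 arrays the limits were 1.16-fold and 1.29-fold.

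Th2 cytokines are the product of the line, and all 9 listed genes were measured. None was called. With samples as the unit, Il4, Il3 and Il10 were higher with Glatopa at an unadjusted p under 0.05 (3 of 9, beside 1.78% of all probes). None was lower, and all 9 limits were under 1.5-fold. With lot means the unadjusted limma p was 0.0391 for Il4, 0.0266 for Il3 and 0.118 for Il10, and 8 of 9 limits were under 1.5-fold. The lists were drawn up with earlier results of these data known, so these counts are descriptions.

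Il4 drives Th2 differentiation and B cell class switching. It stood at 5.43 in media-only wells, ranged from 7.62 through a median of 7.83 to 8.15 over 17 Copaxone samples, and from 7.8 through 8.01 to 8.48 over 16 Glatopa samples. Of the Glatopa samples 3 lay above every Copaxone sample, and the groups otherwise overlapped. Lot means ran from 7.72 to 8.15 for Copaxone and from 7.92 to 8.15 for Glatopa, with the single array of Copaxone lot 8 at the top of the Copaxone lots. The difference was 0.18 ± 0.05 (SE), with a 90% interval of 0.09 to 0.27 and a limit of 1.2-fold (limma unadjusted p = 0.00203, adjusted p = 0.995). It equals 7.27% of the Copaxone minus media difference, and the ends of its interval equal 3.59% and 10.9%. These percents take the Copaxone minus media difference as fixed and leave out its error. Without any 1 lot the Glatopa minus Copaxone difference stayed between 0.14 and 0.21.

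Il3, a growth factor for mast cells and basophils, had a difference of similar size. Values ran from 8.4 through 8.8 to 9.13 with Copaxone and from 8.56 through 8.94 to 9.56 with Glatopa, against 5.13 in media-only wells. Of the Glatopa samples 4 exceeded all Copaxone samples. The difference was 0.19 ± 0.08 (SE), with an interval of 0.06 to 0.32 and a limit of 1.25-fold (limma adjusted p = 0.995). Il10, an anti-inflammatory cytokine, sat lower, at 4.87 in media-only wells and at medians of 5.57 and 5.65 with Copaxone and Glatopa. Its difference was 0.1 with a limit of 1.12-fold.

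Il5 and Il13 were measured less precisely. Il5, the eosinophil growth factor, had a difference of 0.17 and a limit of 1.35-fold. Il13, which acts on epithelium and macrophages, ranged from 7.57 to 12.26 with Copaxone, with a median of 9.74, and from 8.66 to 10.53 with Glatopa, with a median of 9.72. Its difference was -0.03, yet the wide spread of the Copaxone samples left a limit of 1.38-fold, or 1.71-fold with lot means. Without the 3 Copaxone arrays that stood apart the difference was 0.11 and the limit 1.49-fold. Il9, Il24, Il31 and Csf2 lay near the array median, with Copaxone means from 4.79 to 5.4, and had limits from 1.06-fold to 1.11-fold.

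**Figure D3:**
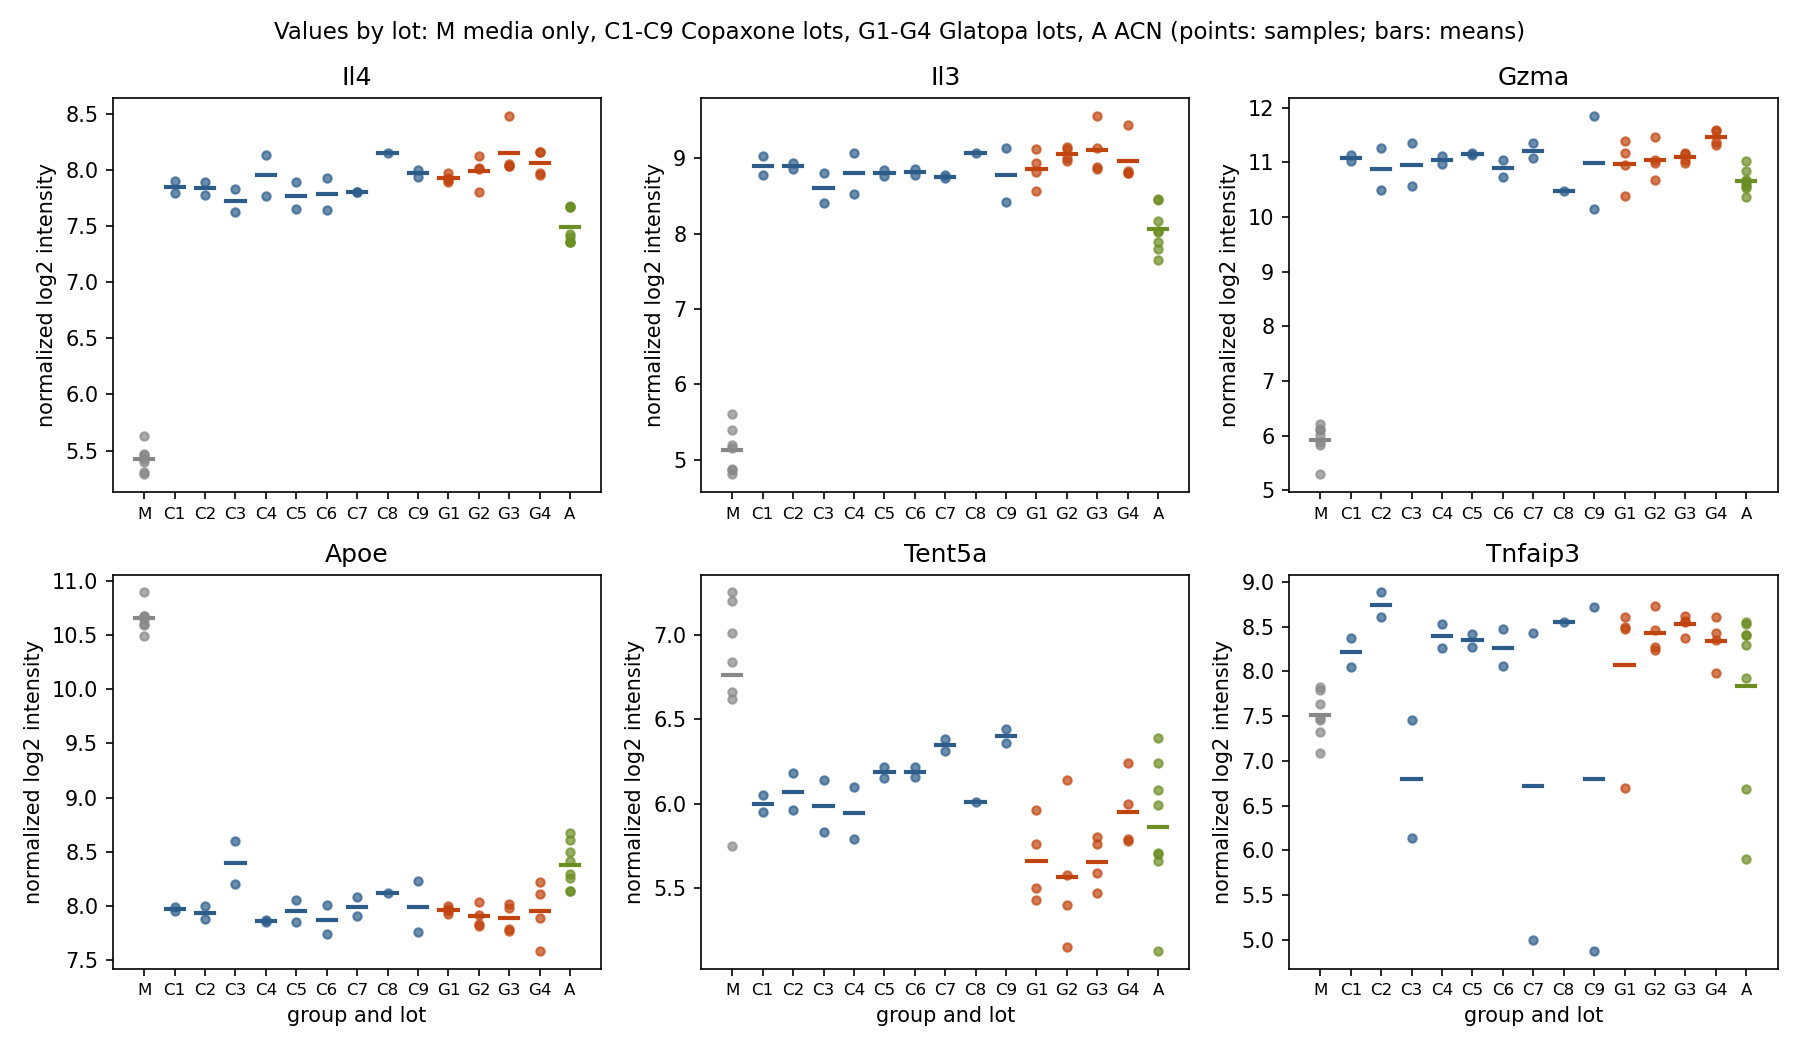
Normalized log2 intensity (vertical axes) of 6 genes in media-only wells (M), Copaxone lots (C1 to C9), Glatopa lots (G1 to G4) and ACN (A); points are samples and bars are means. Il4, Il3 and Gzma were higher and Apoe lower in every treated sample than in media-only wells, Tent5a was lower in most Glatopa samples, and Tnfaip3 shows Copaxone arrays near 5 in lots 7 and 9.

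Limits for cytokines of other T helper classes are read beside those of all probes, of which 90.1% were under 1.2-fold. All 9 Th1, Th17 and follicular cytokines had limits under 1.2-fold, the widest being 1.18-fold for Ltb (lymphotoxin beta). All 13 cytokines of APCs did so too, with Il6 at 1.19-fold. The median levels of these 2 lists were 5.1 and 4.99, near the array median, so narrow limits there say little about the transcripts. Only 5 of the 9 and 7 of the 13 were among the brighter probes. Il6 had a difference of 0.13 with an interval of 0.02 to 0.25. Among 14 measured T helper transcription factors, the limit was 1.11-fold for Gata3, 1.15-fold for Tbx21, which directs Th1 cells, and 1.1-fold for Bcl6, which directs follicular helper cells. The widest was 1.35-fold, for Nfil3, whose difference went from 0.18 to -0.04 and limit to 1.14-fold without the 3 Copaxone arrays that stood apart. Regulatory T cell genes were all under 1.2-fold (11 of 11), with Foxp3 at 1.08-fold. Foxp3 lay near the array median in both products, at 5.22 and 5.21.

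Receptors and signaling genes showed wider single members. For scale, 95.3% of all probes and 91.1% of the brighter probes had limits under 1.3-fold. Whether the count of any list differs from these shares was not tested. Limits were under 1.3-fold for 19 of 22 chemokines, 15 of 16 chemokine receptors, 9 of 10 NF-kB subunits and inhibitors and 12 of 12 cytokine signaling inhibitors and STAT5 targets. Of 25 cytokine receptors, 23 had limits under 1.3-fold. Il21r, the IL-21 receptor, had the smallest p of the list: it ranged from 5.61 through 6.15 to 6.71 with Copaxone and from 5.12 through 5.92 to 6.4 with Glatopa, a difference of -0.28 ± 0.11 (SE) and a limit of 1.39-fold. Il2ra and Il2rb, chains of the IL-2 receptor, had differences of 0.18 and 0.15 and a limit of 1.25-fold each. Without the 3 Copaxone arrays the differences were 0.21 for Il2ra and 0.03 for Il2rb, with limits of 1.29-fold and 1.1-fold. Of 15 genes of the T cell receptor complex and its signaling 13 were under 1.3-fold, and of 17 costimulatory genes 16 were. Of 16 immediate early genes 15 were under 1.2-fold. The exception among them was Jun, a subunit of the AP-1 transcription factor, which ranged from 7.8 through 8.75 to 9.67 with Copaxone and from 8.51 through 9.17 to 9.42 with Glatopa. Its difference was 0.4 ± 0.14 (SE), with an interval of 0.16 to 0.64, a limit of 1.56-fold and limma p = 0.00892 before adjustment (adjusted p = 0.995).

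Limits for genes of antigen presentation and innate response are read beside all probes, with 90.1% under 1.2-fold and 95.3% under 1.3-fold. All 22 Toll-like receptor and innate sensor genes had limits under 1.2-fold, with Clec7a widest at 1.17-fold. All 25 type I interferon response genes did as well, with Mx2 at 1.19-fold. Of 16 interferon-gamma induced GTPases 15 were under 1.3-fold. All 18 Fc receptor and complement genes and all 18 lysosome and lipid genes were under 1.3-fold. Gpnmb, a lysosomal glycoprotein of macrophages, had the smallest p of the lysosomal list, with a difference of -0.15 and a limit of 1.2-fold. MHC class I genes were under 1.3-fold in 11 of 12 cases and MHC class II genes in 9 of 12. H2-Ab1, a class II beta chain, had a limit of 1.16-fold and H2-DMa, which loads peptide, 1.13-fold. The 3 class II genes beyond 1.3-fold were H2-Eb1 at 2.81-fold, H2-Aa at 1.47-fold and H2-Ob at 1.33-fold. Genes that IL-4 induces in APCs were under 1.3-fold in 12 of 13 cases.

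Growth and housekeeping functions were counted in the same way, beside 95.3% of all probes and 91.1% of the brighter probes under 1.3-fold. Cell death and stress genes (15 of 15), cholesterol and fatty acid synthesis (23 of 23), the unfolded protein response (21 of 21) and aminoacyl-tRNA synthetases and amino acid supply (22 of 22) had all limits under 1.3-fold. The share was 31 of 35 for cell cycle and DNA replication, 21 of 24 for ribosome biogenesis and polyamine synthesis, 15 of 18 for glycolysis, 16 of 19 for oxidative phosphorylation, 21 of 25 for the proteasome and 15 of 19 for cytosolic ribosomal proteins. Psmc3, a proteasome ATPase, had a difference of 0.33 (limit 1.43-fold), or 0.2 (limit 1.28-fold) without the 3 Copaxone arrays, and its second probe one of 0.07. Cox5a, a subunit of cytochrome c oxidase, had a difference of -0.31 (limit 1.4-fold). Pcna, the DNA polymerase clamp, had one of 0.29 (limit 1.41-fold), or 0.15 (limit 1.26-fold) without the 3 Copaxone arrays. Genes of naive and quiescent T cells were under 1.3-fold in 11 of 13 cases. Cytotoxic granule genes were under 1.3-fold in 11 of 13 cases, and Ctsw, a cathepsin of cytotoxic lymphocytes, had a difference of -0.23 with a limit of 1.3-fold.

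Over the 34 functional lists, the median difference of a list lay between -0.04 and 0.06. The median limit lay between 1.09-fold and 1.2-fold. A statement that holds for a whole list takes the widest limit among its members: under 1.2-fold for 5 lists, under 1.3-fold for 12, under 1.5-fold for 19 and under 2-fold for 27. Those counts take samples as the unit. With lot means, 20 of 22 aminoacyl-tRNA synthetase and amino acid supply genes and 13 of 15 cell death and stress genes were under 1.3-fold. So were 20 of 21 unfolded protein response genes and 22 of 23 cholesterol and fatty acid synthesis genes. The counts were 11 of 12 for cytokine signaling inhibitors and STAT5 targets and 17 of 18 for Fc receptors and complement. The rest of the 12 lists stayed wholly under 1.3-fold. Across the 649 measured genes of all lists, markers included, 599 (92.3%) had limits under 1.3-fold and 628 (96.8%) under 1.5-fold. With lot means 580 (89.4%) and 618 (95.2%) did. At an unadjusted p under 0.05, 15 of the 649 were higher with Glatopa and 8 lower, or 2.31% and 1.23%, beside 1.78% and 2.35% of all probes.

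**Figure D4:**
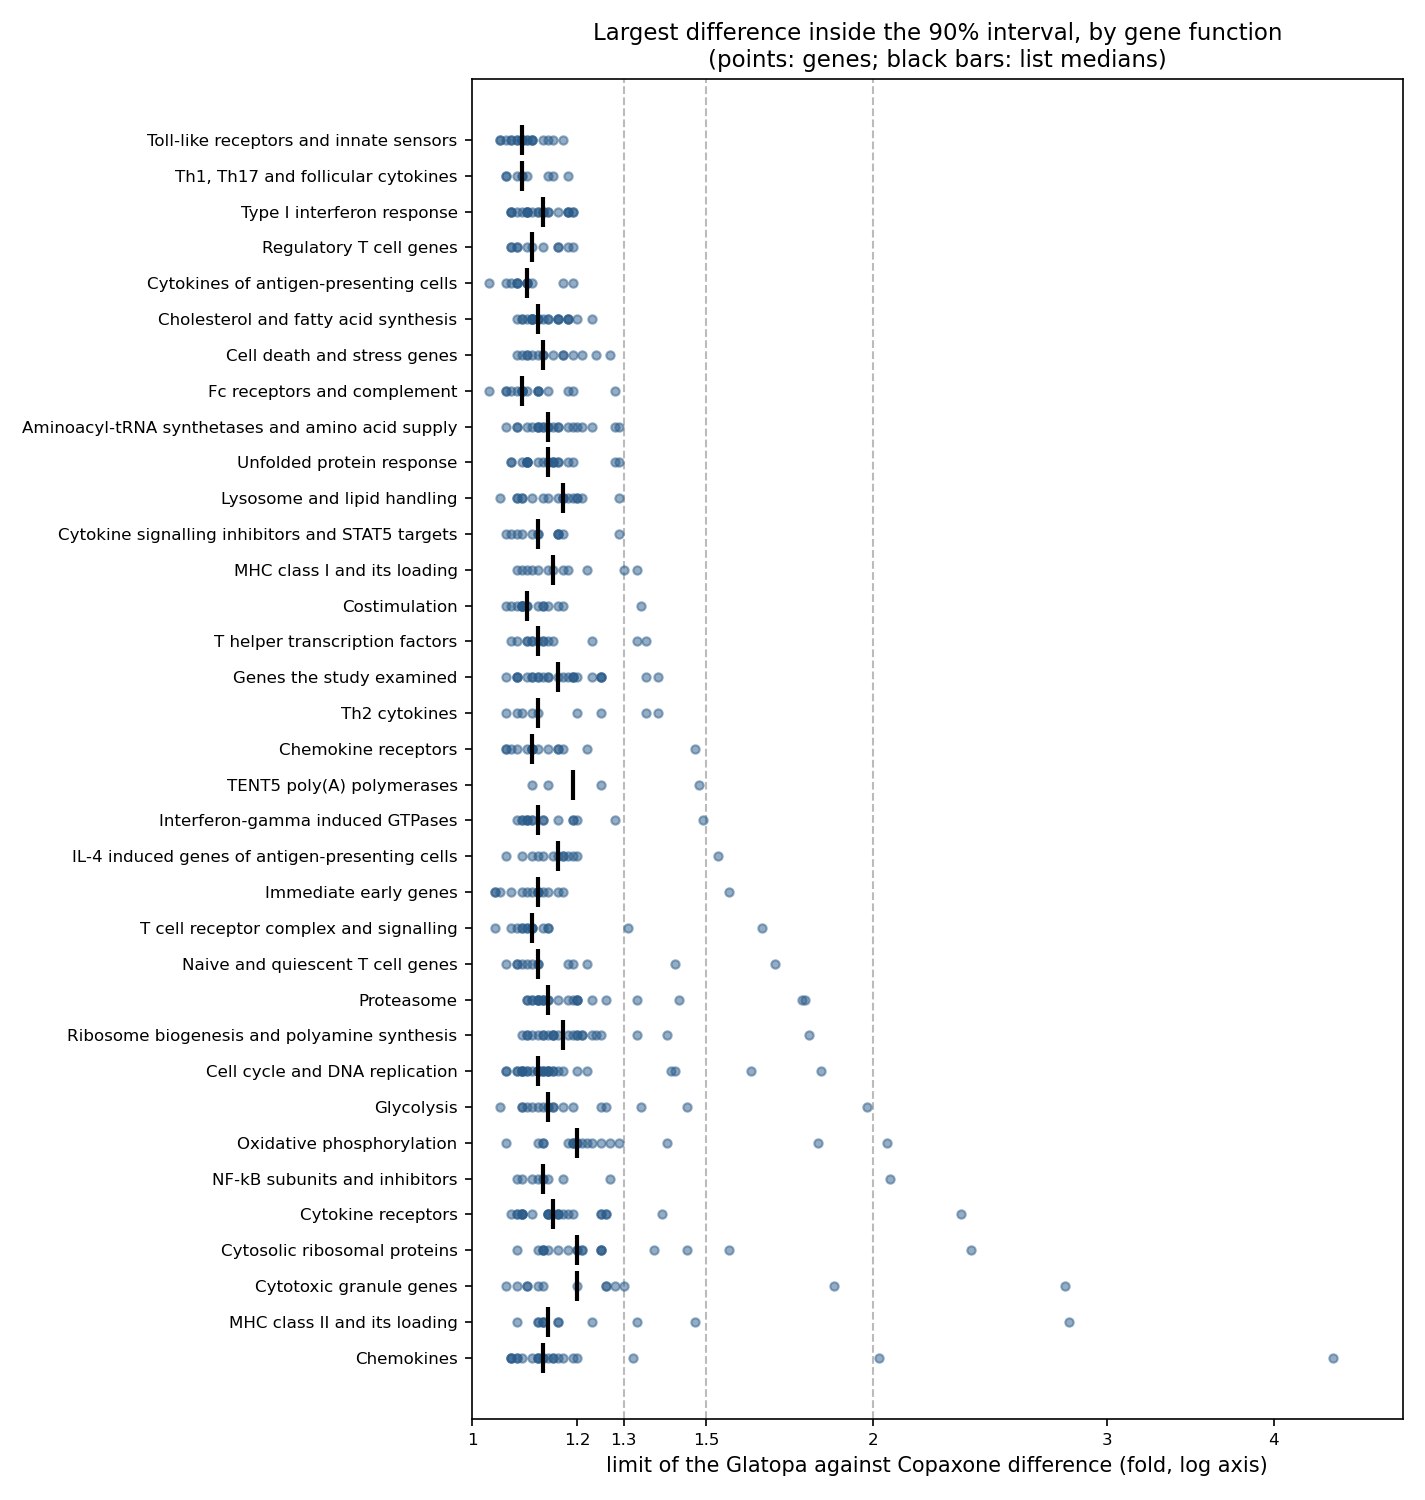
Limit of each gene's Glatopa against Copaxone difference (horizontal log axis, fold) by functional list; points are genes and black bars are list medians. List medians lie between 1.09-fold and 1.2-fold, and some lists hold far members, such as Cxcl11 at 4.43-fold.

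Most genes with wide limits had 1 or more arrays far from the rest. Of the 21 listed genes with a limit of 1.5-fold or more, 20 had an array more than 2 log2 units from the median of its own product. In 11 of the 21 the farthest array was one of the 3 Copaxone arrays that stood apart, and in 3 it was a Glatopa array. Tnfaip3, which restrains NF-kB signaling, is an example: its medians were 8.37 with Copaxone and 8.47 with Glatopa, while the 3 Copaxone arrays read 4.88, 5 and 6.14. Its limit was 2.06-fold with all samples and 1.21-fold without the 3 arrays. Psmd1, a proteasome subunit, went from 1.78-fold to 1.11-fold, Ccl3, an inflammatory chemokine, from 2.02-fold to 1.2-fold, and Cd3e, a T cell receptor chain, from 1.65-fold to 1.23-fold. In each of these 4 genes the 3 arrays were the lowest Copaxone values. Cxcl11, an interferon-induced chemokine, went from 4.43-fold to 1.84-fold, and H2-Eb1 from 2.81-fold to 1.54-fold. The Cxcl11 probe had a difference of 0.98 with all samples and 0.03 without the 3 arrays, and a second probe, at a mean level of 10.23, one of -0.22 with an interval of -0.63 to 0.19. The lowest H2-Eb1 value was 4.9 in Copaxone lot 7 replicate 1 against a median of 13.09. Not every limit narrowed. Without the 3 arrays 7 of the 21 came under 1.5-fold, and 16 listed genes had limits of 1.5-fold or more. Among limits that widened, Sdha went from 2.05-fold to 2.2-fold, Jun from 1.56-fold to 1.64-fold and Fcer2a from 1.53-fold to 1.63-fold.

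Single far arrays occurred in Glatopa as well. Gzmd (granzyme D) read 14.53 in Glatopa lot 1 replicate 4 against a Glatopa median of 5.32, and Il1r1 (IL-1 receptor) read 12.25 in Glatopa lot 2 replicate 2 against 4.99. Their limits of 2.79-fold and 2.33-fold were 2.24-fold and 1.93-fold with lot means, where those values are averaged with 3 others. Without the lot that holds the far array (Glatopa lot 1 for Gzmd, Glatopa lot 2 for Il1r1) both limits were 1.1-fold. Over all probes, 265 had 1 of the 33 arrays more than 4 log2 units above the other 32, spread over 29 arrays. Without the 3 Copaxone arrays, 92.6% of the brighter probes had limits under 1.3-fold, in place of 91.1%.

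The smallest p of the whole array belonged to Tent5a, a noncanonical poly(A) polymerase. It stood at 6.76 in media-only wells, ranged from 5.79 through a median of 6.15 to 6.44 with Copaxone and from 5.15 through 5.76 to 6.24 with Glatopa. Of the Glatopa samples 11 lay below every Copaxone sample. The means of Glatopa lots 1, 2 and 3 were 5.66, 5.56 and 5.65, and that of lot 4 was 5.95, level with the lowest Copaxone lot at 5.95. The difference was -0.42 ± 0.08 (SE), with an interval of -0.56 to -0.29, so that signal was 1.34-fold lower with Glatopa and the limit was 1.48-fold (limma unadjusted p = 9.34e-06, adjusted p = 0.368). Without Glatopa lot 4 the difference was -0.5 and passed the threshold (limma adjusted p = 0.0327), the sole call made when any 1 lot was left out. A second probe for Tent5a, at a mean level of 4.89, gave 0.05 with an interval of -0.01 to 0.12. ACN wells had a mean of 5.86, between the Copaxone mean of 6.13 and the Glatopa mean of 5.71.

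Among the 12 genes with the smallest p, 6 were higher and 6 lower with Glatopa, and 10 had mean levels under 5.3. Esp6 (4.95 and 4.78), Actl9 (4.93 and 4.75) and Rab5b (4.75 and 4.89, Copaxone and Glatopa means) are such cases, with limits of 1.17-fold, 1.18-fold and 1.14-fold. The brighter exception beside Tent5a was Ebna1bp2, a nucleolar protein of ribosome assembly. It ranged from 8.51 through 9.24 to 9.62 with Copaxone and from 9.1 through 9.6 to 9.76 with Glatopa, a difference of 0.31 ± 0.08 (SE) and a limit of 1.37-fold (limma adjusted p = 0.995). Its second probe, at a mean level of 7.54, gave 0.02.

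ACN shows what a chemically distinct glatiramoid did on the same arrays at the same dose and time. Between ACN and Copaxone 44 probes were called (0.112%; 28 higher and 16 lower with ACN), and between ACN and Glatopa 268 (0.68%), by limma at an adjusted p under 0.05. The 3 pairs share samples, and ACN had 8 wells of 1 lot, so the counts are not compared. All 44 probes had Glatopa minus Copaxone limits under 1.3-fold, beside 95.3% of all probes and 91.1% of the brighter probes. Their median absolute difference was 0.41 between ACN and Copaxone and 0.049 between Glatopa and Copaxone. They were chosen on the Copaxone samples that enter both values. That choice favours a large ACN difference and a small spread among Copaxone samples, so neither value tests how close the products were.

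Il3 was lower with ACN, with a difference of -0.75 from Copaxone (limma adjusted p = 0.00177) and of -0.94 from Glatopa (limma adjusted p = 0.000219). Il4 had differences of -0.36 and -0.53. Slpi, a secreted protease inhibitor, differed between ACN and Copaxone by -0.68 and Ch25h, an oxysterol-forming hydroxylase, by -0.3, while their Glatopa minus Copaxone differences were 0.07 (limit 1.16-fold) and -0.01 (limit 1.06-fold). Cd1d1, which presents lipids to NKT cells, was higher with ACN by 0.37 and Fabp3, a fatty acid carrier, by 0.5, beside 0.05 (limit 1.1-fold) and 0.11 (limit 1.18-fold). Over the 12 genes with the smallest p between ACN and Copaxone, limits for Glatopa lay from 1.06-fold to 1.25-fold.

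**Figure D5:**
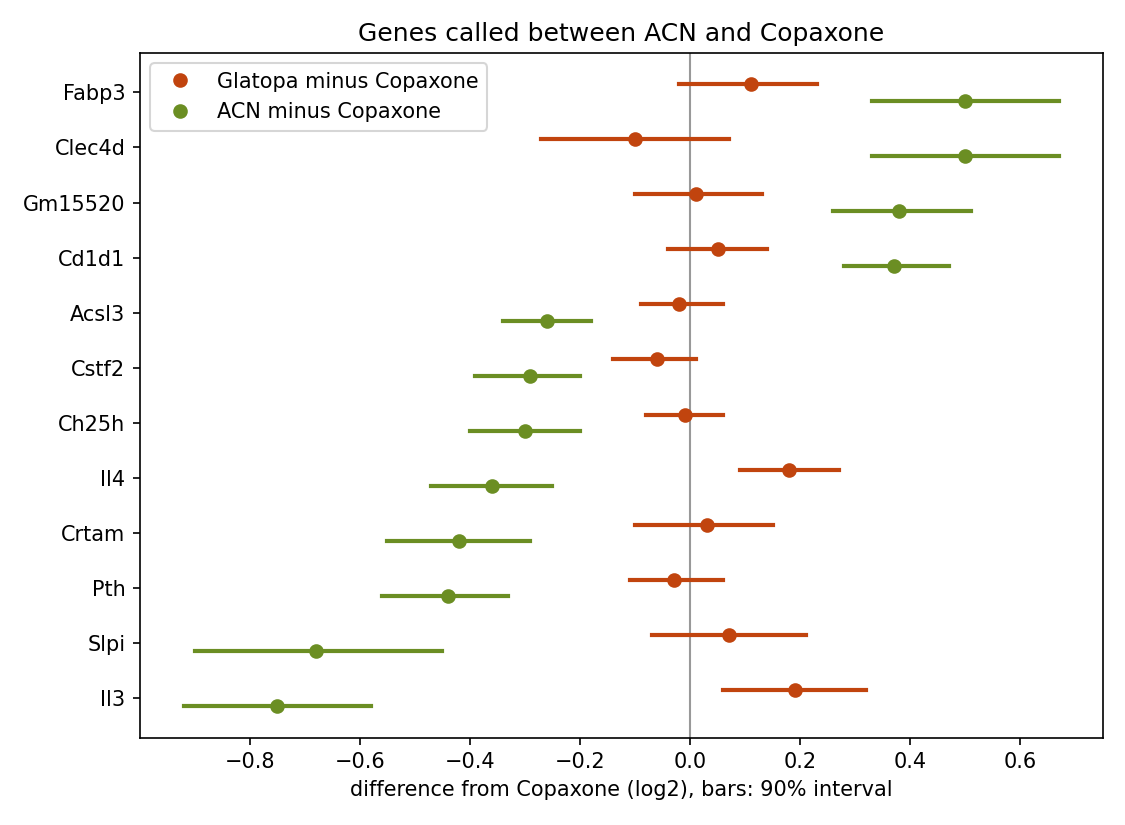
Log2 difference from Copaxone with its 90% interval (horizontal axis) for Glatopa and ACN at the 12 genes with the smallest p between ACN and Copaxone. Glatopa points lie between -0.10 and 0.19, ACN points between -0.75 and 0.50. Genes were chosen on the ACN minus Copaxone difference, and the same Copaxone samples enter both plotted differences.

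The study's multivariate statistic compares the mean Pearson dissimilarity between 2 groups with the spread inside them. For Glatopa and Copaxone it was 0.5003 (one-sided permutation p = 0.378, 100000 resamples). Dissimilarity averaged 0.02413 between the products, 0.02129 among Glatopa samples and 0.02693 among Copaxone samples, so that the value between products lay between the values within them. Without the 3 Copaxone arrays that stood apart it was 0.02103 between products and 0.0208 among Copaxone samples (permutation p = 0.432). With lot means the permutation p was 0.4 over all 715 assignments. The statistic was 0.5078 for ACN and Copaxone (permutation p = 0.178), a pair in which 44 probes were called, and 0.5232 for ACN and Glatopa (permutation p = 0.00068).

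Differences among lots of the same product were tested with limma's F test. Over 4 Glatopa lots 0 probes were called (0%), with 1555 at an unadjusted p under 0.05. Over 9 Copaxone lots 10 were called (0.0254%), with 1340 at an unadjusted p under 0.05. Among these were Ndufa6, a subunit of respiratory complex I, whose Copaxone lot means ran from 5.01 in lot 8 to 9.59 in lot 3, and Tpt1, a growth-related protein, from 9.78 in lot 8 to 13.6 in lot 9. Lot 8 is a single array, and without it 0 probes were called. Without the 3 Copaxone arrays that stood apart, which leaves 4 Copaxone lots with 1 array each, 161 were called. At these 2 genes the Glatopa minus Copaxone differences were -0.31 (interval -0.94 to 0.32) and 0.06 (interval -0.35 to 0.48).

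Cell composition was compared through marker genes, since fewer cells of a type and less RNA per cell cannot be told apart in lysates of whole wells. Over the 10 marker lists the median difference lay between -0.05 and 0.03. The mean level of the 8 measured T cell markers ranged from 7.07 to 7.71 over Copaxone and from 7.4 to 7.74 over Glatopa samples. The range was 7.81 to 8.48 and 8 to 8.38 for 10 B cell markers, 6.31 to 6.56 and 6.29 to 6.54 for 15 monocyte and macrophage markers, and 5.93 to 6.1 and 5.83 to 6.06 for 15 neutrophil markers. A positive difference was found for 51.6% of all listed genes. Among markers it was found for 3 of 15 neutrophil, 2 of 11 dendritic cell and 5 of 15 monocyte and macrophage genes. For mast cells, basophils and eosinophils it was 2 of 8, for B cells 4 of 10, for T cells 5 of 8 and for NK cells 5 of 6. The remaining lists had 3 of 6 for plasma cells, 1 of 2 for CD8 T cells and 4 of 6 for erythroid cells and platelets. Median levels were 5.15 for neutrophil, 4.9 for mast cell, basophil and eosinophil and 4.95 for NK cell markers. These lie near the array median, where a sign says little about the transcript. Lyz2, the macrophage lysozyme, had a difference of -0.25 with a limit of 1.36-fold, and S100a8, a neutrophil alarmin, one of -0.18 with a limit of 1.27-fold. The part of cell composition in the differences of other genes was not tested.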

How the data were processed

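Total RNA was labelled with Cy3 and hybridized to 1-colour Agilent mouse arrays. Per the deposited series table and the study's methods, the authors extracted median intensities with GenePix, background-corrected them in limma (normexp, offset of 8), took log2 and quantile-normalized all arrays. 2 arrays, 1 of Copaxone lot 8 and 1 media-only, were left out by the authors for quality. No detection flags or scanner files were used here, and neither slide nor position was given in the sources used here.

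Starting from these log2 values, spots that share a gene symbol and accession 10 or more times were averaged. Probe names came from the platform annotation (9994 probes have none). Sets of samples were compared with limma 3.58.1 in R 4.3.3 (lmFit, eBayes, two-sided, Benjamini-Hochberg). Intervals are 90%, that is 1-sided limits at 5% on each side, without correction across probes. Genes are shown by the probe with the highest mean, except for the smallest p.

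Named genes were those the study examined, in each list the smallest p and the 2 widest limits, the 12 smallest p over all probes, the 10 largest ACN rises and falls, and 12 genes called between ACN and Copaxone. A further few are examples of lists, chosen after their values were seen. Members and lists were chosen with earlier results of these data known. 41 of 690 listed genes had no named probe here. The fits were run on simulated data with independent normal noise for each probe and sample. Those data held no single far values and no deviations shared across an array. Coverage of the intervals under such deviations was therefore not tested. Samples were grouped by the titles, and the arrays give no count of molecules, so the number of arrays limits the precision.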

Additional observations from a re-analysis of the deposited data

Results flagged for a closer look

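Within the 4 wells of a Glatopa lot, or within the ACN or media-only wells, 25 values lay far from the others (gap over range beyond Dixon's critical value). They come from 218 small groups examined, and chance gives about 1 in 20. Values are normalized log2 intensities.

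Among the cytokines, Il4 read 8.48 in Glatopa lot 3 replicate 1 against 8.03 to 8.05 in the other wells of the lot, and Il3 read 9.44 in Glatopa lot 4 replicate 1 against 8.8 to 8.83. Both lie on the side of the higher Glatopa mean. Il5 read 10.09 in Glatopa lot 2 replicate 1 (others 9.54 to 9.56) and Il13 8.68 in Glatopa lot 4 replicate 4 (others 9.69 to 9.78). Il6 read 7.06 in ACN replicate 4 (others 6.44 to 6.68). Of the receptors, Il2ra read 8.72 in Glatopa lot 3 replicate 4, Il12rb1 7.19 in Glatopa lot 3 replicate 1, Il2rb 5.81 in media-only replicate 5 and Ccr2 4.97 in ACN replicate 2.

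Of other genes, Icosl read 7.11 in Glatopa lot 4 replicate 3, S100a10 7.84 in Glatopa lot 4 replicate 2, and Cd9 7.15 in Glatopa lot 3 replicate 2 and 7.51 in media-only replicate 2. ACN replicate 4 also gave Slpi at 9.77 (others 10.69 to 10.98) and Clec4d at 8.49 (others 7.42 to 7.69). H2-Ab1 read 12.09 in media-only replicate 6, H2-Eb2 6.06 in media-only replicate 7 and Cd1d1 7.77 in media-only replicate 5. At dim probes, Dcdc5 read 4.54, 4.63 and 4.7 in 1 well each of Glatopa lots 3, 1 and 2, Actl9 4.62 in lot 2 replicate 1, Rab5b 5 in lot 3 replicate 2, Gabra3 4.92 in lot 4 replicate 3 and Vmn1r174 4.93 in lot 3 replicate 2.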

How the results depend on the processing

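Between the products limma called 0 probes under every alternative except without Glatopa lot 4, where 1 (Tent5a) passed, so that leaving out a lot gave 0 to 1. The count of limits under 1.3-fold lay between 36472 and 37909 in the alternatives that kept all probes, and the multivariate permutation p ranged from 0.296 to 0.681 without any 1 lot and the median along the ACN response stayed within the spread of samples in all alternatives run. Copaxone lots gave 20 calls with an intensity trend and robust prior, 2 among probes above the median level and, in alternatives chosen after seeing the data, 161 without the 3 Copaxone arrays apart, which leaves 4 lots with 1 array each, and 0 without lot 8. The cause was not tested. No source ties a replicate number to a shared batch or day. Deviations of same-numbered wells correlated at 0.148 (number 1) and -0.139 (number 2) across products, although replicate 1 scored above replicate 2 along the ACN response in 8 of 8 Copaxone lots and 2 of 4 Glatopa lots. In every Glatopa lot replicate 1 also scored above replicate 4. Whether the number marks an order of handling was not tested. Numbers 3 and 4 occur in Glatopa but not in Copaxone, so a block compares the products within numbers 1 and 2. With the replicate number as a block (replicate block), 0 probes were called and 36472 limits lay under 1.3-fold; oxidative phosphorylation then had 10 genes and cytotoxic granules 7 genes under 1.3-fold. Of 158 named probes, 112 had limits under 1.3-fold; 13 of them exceeded it with lot means, 19 with the replicate block and 15 with 95% intervals.

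The intervals rest on wells of 1 cell bank and on 1 Copaxone-raised line, and they are not corrected across probes. Probes near the array median carry little signal, so that a narrow limit there says little about the transcript. Lot 8 of Copaxone is a single array, and ACN is a single lot. No slide or position was given in the sources used here, so neither was tested as a batch.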
